A study of Mus musculus with 6 samples.

Results

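The genes described here are 43 genes of DNA replication and mitosis, taken by name from the 25078 genes of the count and RPKM tables, and every one of them was found there. They form an S-phase list of 21 genes, whose products license origins, unwind and copy DNA or make its nucleotides, and a G2/M list of 22 genes, whose products drive and check chromosome segregation. They were measured by RNA-seq of ribosome-depleted total RNA in 6 libraries of Hepa1-6, an established mouse hepatoma line derived from a C57/L mouse. One library came from untreated cells (wt), 2 from cells transduced with lentivirus carrying a scramble vector (scr, replicates 25-2 and 50-1) and 3 from cells transduced with lentivirus carrying a midnolin shRNA vector (knockdown, replicates 25-3, 50-2 and 50-5). Both transduced groups were selected with puromycin and grown from single cells after limiting dilution, so a library can carry the features of 1 clone as well as those of its vector. The labels do not name the clones. The RPKM values of knockdown 50-2 and 25-3 equal those the study tabulates for its clones sh1 and sh2, in all 1325 genes matched by name, so these libraries are separate clones. The study writes of its scr control clone in the singular, and which clone gave each scr library or knockdown 50-5 is not given in the sources used here. The p-values below therefore measure only the spread between these libraries, which may be technical in part. In a chi-square test of counts over genes the statistic per degree of freedom was 136 between the scr libraries, 47.7 between knockdown 25-3 and 50-2, and 82.2 and 65.05 between 50-5 and these. The question put to the data was whether the RNA levels of cell division genes differed with midnolin knockdown, in cells whose growth the study followed, and whether S-phase genes moved against G2/M genes.

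Genes of DNA replication are transcribed mainly as cells pass from G1 into S phase, when E2F transcription factors are released from the retinoblastoma proteins. Genes of mitosis are transcribed later, in G2, when the MuvB complex with B-MYB and FOXM1 acts at promoters that hold a CHR element, often beside CCAAT boxes bound by NF-Y. In resting hepatocytes both programmes are low, while in hepatoma lines they are active and are used as a readout of how many cells are cycling.

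The promoters of both lists carried these letters in unequal shares, which the choice of members did not use. RefSeq windows of GRCm38.p6, from 250 bases before to 50 bases after the start site, were given for 36 of the 43 members, 18 in each list, with a second window for 3 of them, and not for Mcm4, Gins1, Gins2, Ccna2, Cdc25c, Aurkb and Foxm1. The motifs were searched on both strands, E2F as TTTCCCGC, TTTCGCGC, TTTGCCGC or TTTGGCGC, CHR as TTTGAA or TTCGAA, and the CCAAT box as CCAAT. A match of one kind overlapped a match of another kind in 1 place among the members' windows. The stretches below are shown because they hold the motif typical of their list. Matches of all 3 kinds are in capitals, each line reads 5′ to 3′ on the strand of the gene, and a match to the other strand appears as its reverse complement. The opening pair of lines gives the 120 bases before the start sites of Mcm6, a subunit of the replicative helicase with 3 E2F matches and 2 CCAAT boxes there, and of Mki67, a surface protein of mitotic chromosomes with 2 CHR matches.
Mcm6, chr1:128359706-128359825, - strand: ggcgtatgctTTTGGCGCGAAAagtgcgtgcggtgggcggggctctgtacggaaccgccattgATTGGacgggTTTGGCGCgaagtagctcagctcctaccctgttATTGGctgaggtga
Mki67, chr7:135716380-135716499, - strand: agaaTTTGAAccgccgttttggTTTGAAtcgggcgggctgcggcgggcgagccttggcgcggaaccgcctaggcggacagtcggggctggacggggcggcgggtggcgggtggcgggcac
The next lines give 30 bases centred on the match nearest to the start site, E2F for 3 further helicase subunits and CHR for 4 genes of mitosis. That match begins after the start site in Mcm3 (base 20), Mcm7 (base 17), Plk1 (base 31) and Kif23 (base 3), and before it in Mcm5 (base -149), Cdk1 (base -15) and Cdc20 (base -18).
Mcm3, chr1:20820275-20820304, - strand: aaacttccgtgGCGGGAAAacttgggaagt
Mcm5, chr8:75109349-75109378, + strand: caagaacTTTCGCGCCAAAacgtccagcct
Mcm7, chr5:138171849-138171878, - strand: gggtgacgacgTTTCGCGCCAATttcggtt
Cdk1, chr10:69352910-69352939, - strand: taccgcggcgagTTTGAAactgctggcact
Cdc20, chr4:118437344-118437373, - strand: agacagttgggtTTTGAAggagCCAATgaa
Plk1, chr7:122159453-122159482, + strand: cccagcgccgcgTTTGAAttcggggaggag
Kif23, chr9:61946780-61946809, - strand: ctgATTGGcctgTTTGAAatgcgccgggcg

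An E2F match lay in a window of 9 of the 18 S-phase genes (50%) and of 1 of the 18 G2/M genes (5.56%), Cdk1. Among the 8966 genes that were tested for expression and had a window the share was 4.99%. A CHR match was found for 4 S-phase genes (22.2%), 14 G2/M genes (77.8%) and 16.7% of the tested genes. The CCAAT box was common everywhere, in 11 S-phase genes (61.1%), 16 G2/M genes (88.9%) and 43.6% of tested genes. Genes with a CHR match and a CCAAT box in the same window numbered 3 in the S-phase list and 14 in the G2/M list, against 7.03% of tested genes. The same order was seen in wider lists of the same processes. E2F matches were found for 31.0% of 42 further replication genes and 8.93% of 56 further mitosis genes with a window, and CHR matches for 19.0% and 62.5%. A match is a description of letters and not a bound site, and a window without one says nothing about the factor.

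**Figure D1:**
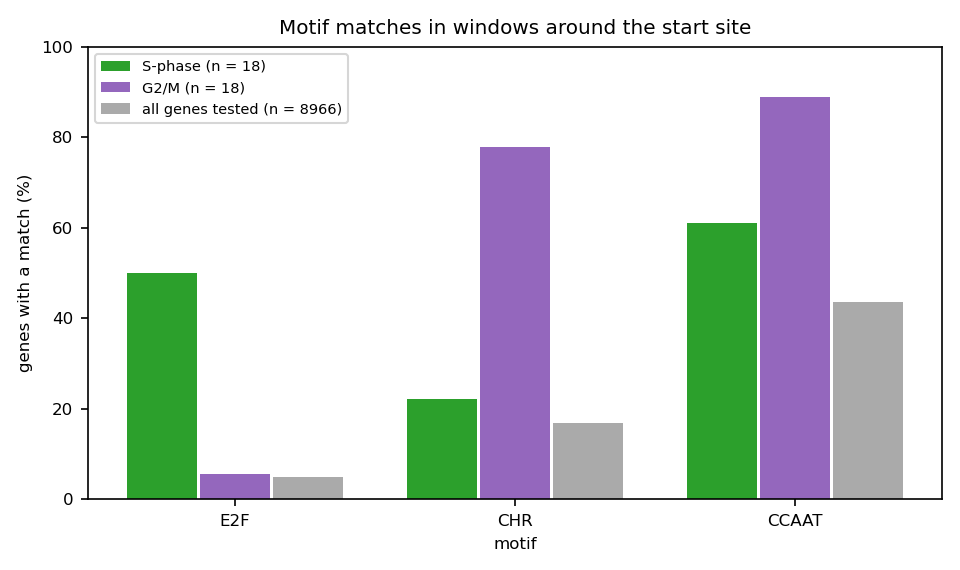
Percentage of genes with at least 1 match to the E2F, CHR or CCAAT letters on either strand, in windows from 250 bases before to 50 bases after the start site. Green bars are S-phase members and purple bars G2/M members (18 genes each), and grey bars all 8966 tested genes with a window. E2F matches stand at 50% in the S-phase list and CHR matches at 77.8% in the G2/M list.

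Between 25586301 and 33119710 reads were counted on genes per library, and the members took 0.653% to 0.763% of them. The targeted gene, Midn (mm10 chromosome 10, 80148272 to 80158368), had an RPKM (reads per kilobase of exon, scaled to library size with TMM) of 60.5 in wt, 59.6 (25-2) and 50.8 (50-1) in the scr libraries, and 20.3 (25-3), 21.8 (50-2) and 22.1 (50-5) in the knockdown libraries. All 3 knockdown libraries lay below the other 3, and the log2 fold change of knockdown against scr was -1.38 ± 0.133 (SE), at FDR 0.00777 by edgeR's quasi-likelihood test after Benjamini-Hochberg adjustment. Without knockdown 50-2 its call was lost at a log2 fold change of -1.38. The knockdown libraries resembled one another more (Spearman 0.977 to 0.987 across genes) than the scr libraries did (0.944). Hepatocyte markers differed between the groups in both directions. Their summed RPKM over 14 genes was 7647 in wt, 4700 and 5610 in scr and 3456, 3334 and 2263 in knockdown. Alb was at 1877 and 2804 in scr and at 336, 62.7 and 20.9 in knockdown, while Apoe was at 1178 and 818 in scr and at 1500, 1451 and 1327 in knockdown. Krt18 was at 408 and 535 in scr and at 821, 1160 and 632 in knockdown, and Serpina1a was listed at 0 in every library. Summed markers of blood cells lay between 3.26 and 9.88 RPKM, and those of endothelium at or under 0.371 except 2.89 in wt. The biliary list lay between 34.4 and 57.1, with Sox9 at 17.6 to 46.6 and Krt7 at 30.6 in wt, 21.3 and 13.9 in scr and 0.858, 1.89 and 2.15 in knockdown. In the fibroblast list Dcn alone reached 409 to 1028 RPKM, and Thy1 was at or near 0 throughout. Whether these marker differences had a part in any value below was not tested.

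All 43 members passed the filter of an RPKM over 1 in at least 1 of the 5 knockdown and scr libraries, with mean RPKM over the 6 libraries from 1.56 (E2f2) to 181 (Top2a) and a median of 39.6, against a median of 11.1 over all 11577 genes tested. None was called in knockdown against scr at an FDR under 0.05 with a change of at least 1.5-fold, and none reached that FDR at any size of change (3 against 2 libraries, edgeR's quasi-likelihood test, Benjamini-Hochberg adjusted). In the same fit 10.6% of all genes were called. At an unadjusted p under 0.05 there were 11 members, 7 higher and 4 lower in knockdown, where 31.5% of all genes passed (15.0% higher and 16.5% lower). That count was 15 without scr 25-2 (36.8% of all genes in that fit), and 6 without scr 50-1 (32.0%), without knockdown 25-3 (23.3%) or without knockdown 50-2 (21.5%). Without knockdown 50-5, which leaves only knockdown libraries that the study tabulates, the count was 8, where 2845 of 11482 genes passed. DESeq2 called 3 members, Mcm2 and Kif23 as higher and Mki67 as lower, where it called 20.1% of all genes. Limma called 0 on log2(RPKM + 0.1), where it called 1201 of 11577 genes, and 0 on log2(RPKM + 1), where it called 1159. The members' log2 fold changes had a median of 0.01, with 23 above and 20 below 0. In size their median was 0.206, against 0.357 over all genes, and 5 members passed 1.5-fold against 31.3% of all genes. In bulk RNA of this kind, fewer cycling cells and less RNA per cell cannot be told apart.

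The 95% intervals show what these 5 libraries could resolve. For 19 of the 43 members (44.2%) the whole interval lay within 1.5-fold of equality, against 19.5% of all genes, whose median RPKM was lower. These were 10 S-phase genes, among them Pcna at -0.02 (interval -0.39 to 0.35), Mcm7 at 0.04 (-0.30 to 0.37) and Prim1 at 0.17 (-0.11 to 0.46), and 9 G2/M genes, among them Top2a at 0.16 (-0.25 to 0.56) and Cdk1 at -0.16 (-0.49 to 0.17). The other 24 intervals reached past 1.5-fold on at least 1 side, so these libraries do not bound the change of those genes within that size. The widest were those of E2f2 (-2.48 to 0.13) and Aurka (-0.74 to 0.76). The plot of fold changes shows all 43.

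**Figure D2:**
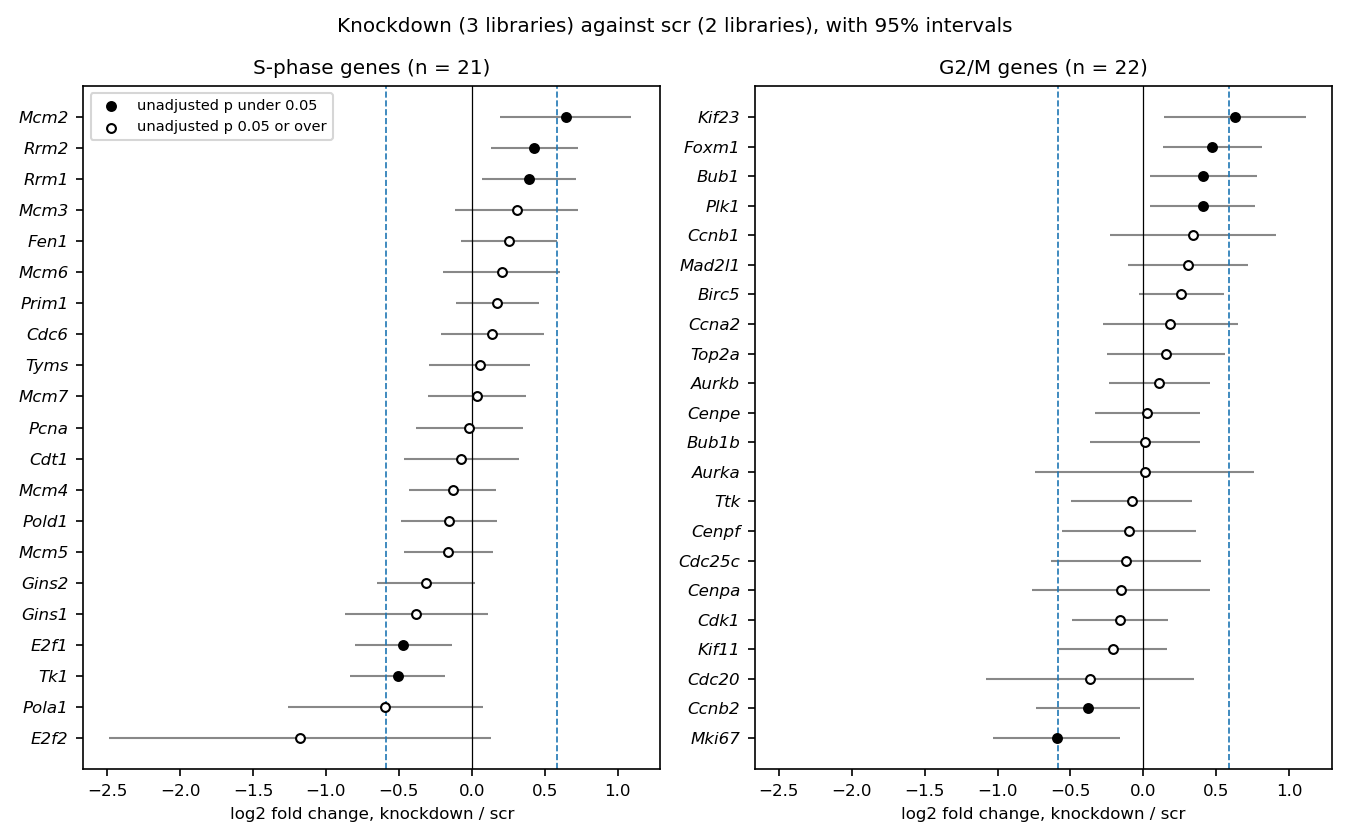
Log2 fold change of knockdown (3 libraries) against scr (2 libraries) for each S-phase and G2/M gene, with bars for the 95% interval of the edgeR quasi-likelihood fit and dashed lines at 1.5-fold. Filled points have an unadjusted p under 0.05 (5 S-phase and 6 G2/M genes). Points lie on both sides of 0 in both lists, and the bar of E2f2 is the longest.

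Among S-phase genes the MCM helicase, a ring of 6 subunits that unwinds DNA, had log2 fold changes of both signs. Mcm2 (chromosome 6, 88883474 to 88898780) had an RPKM of 79.3 in wt, 50.3 (25-2) and 40.4 (50-1) in the scr libraries, and 80.4 (25-3), 74.1 (50-2) and 60.1 (50-5) in the knockdown libraries. Every knockdown library lay above both scr libraries, but wt lay among the knockdown values, with a log2 fold change of 0.64 ± 0.183 (SE). Mcm3, the S-phase gene of highest mean RPKM, had 88.9 in wt, 82.1 (25-2) and 93.1 (50-1) in the scr libraries, and 113 (25-3), 92.3 (50-2) and 123 (50-5) in the knockdown libraries. One scr value fell among the knockdown values, and its log2 fold change was 0.31 ± 0.170 (SE). Mcm6 followed with 0.20 and Mcm7 with 0.04, while Mcm4 and Mcm5 had -0.13 and -0.16. In RPKM the subunits ranged over 38.05 to 46.6 for Mcm4, 39.7 to 56.2 for Mcm5, 57.5 to 69.8 for Mcm7 and 63.6 to 92.1 for Mcm6, so levels per kilobase differed between subunits of 1 complex. In scr 50-1 Mcm2 was the lowest of the 6 subunits, and in knockdown 25-3 it stood second after Mcm3. Gins1 and Gins2, subunits of the GINS part of the same helicase, lay at 19.5 to 34.9 and 29.6 to 47.00 RPKM with log2 fold changes of -0.38 and -0.31. These were -0.092 and -0.40 without scr 25-2, and -0.61 and -0.20 without scr 50-1. For Gins2, Mcm4 and Mcm5 all 3 knockdown libraries lay below the other 3 libraries, as they did for 2263 of the 11577 genes tested. Gins2 shares 118 bases with Gse1 on the other strand, whose mean was 10.7 RPKM, so its counts are uncertain.

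The licensing factors load the helicase in G1, and the intervals of both lay within 1.5-fold of equality. Cdc6 lay at 11.2 to 14.5 RPKM with a log2 fold change of 0.14, and Cdt1 at 34.8 to 45.6 with -0.07. Genes of nucleotide supply had values of both signs. Rrm1 and Rrm2 encode the large and small subunits of ribonucleotide reductase, which makes deoxyribonucleotides from ribonucleotides. Rrm2 (chromosome 12, 24708254 to 24714146) had an RPKM of 71.9 in wt, 56.99 (25-2) and 53.6 (50-1) in the scr libraries, and 74.6 (25-3), 79.2 (50-2) and 71.3 (50-5) in the knockdown libraries, for a log2 fold change of 0.43 ± 0.121 (SE). Rrm1 had 72.7 in wt, 63.1 (25-2) and 67.8 (50-1) in the scr libraries, and 82.8 (25-3), 83.1 (50-2) and 94.01 (50-5) in the knockdown libraries, for 0.39 ± 0.131 (SE). For both subunits the knockdown libraries lay above both scr libraries, and for Rrm1 above wt too. Tk1 (chromosome 11, 117815519 to 117826014), the cytosolic thymidine kinase of the salvage pathway, had 25.9 in wt, 28.5 (25-2) and 28.5 (50-1) in the scr libraries, and 18.9 (25-3), 20.3 (50-2) and 21.3 (50-5) in the knockdown libraries. The scr libraries were alike to 3 digits, all 3 knockdown libraries were the lowest of the 6, and the log2 fold change was -0.51 ± 0.132 (SE) with the smallest FDR of any member at 0.0635 (Benjamini-Hochberg adjusted, edgeR's quasi-likelihood test). Tk1 shares 96 bases with Afmid on the other strand, which had a mean of 3.81 RPKM. Tyms, thymidylate synthase, lay at 8.28 to 12.5 RPKM with a log2 fold change of 0.05. Its counts are uncertain, since the near-identical Tyms-ps was also counted, at a mean of 4.39 RPKM.

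Of the 5 synthesis genes 4 had intervals within 1.5-fold of equality. Pcna, the sliding clamp, lay at 50.9 to 63.3 RPKM, Pold1, the catalytic subunit of polymerase delta, at 18.1 to 22.8 with a log2 fold change of -0.16, and Prim1, the primase, at 52.5 to 68.1. Fen1, the flap nuclease of lagging strands, lay at 40.5 to 54.6 RPKM with 0.25, and it shares 192 bases with Tmem258 on the other strand, whose mean was 108 RPKM. Pola1 (chromosome X, 93304766 to 93632155), the catalytic subunit of polymerase alpha, had 18.4 in wt, 14.8 (25-2) and 27.6 (50-1) in the scr libraries, and 14.6 (25-3), 15.4 (50-2) and 12.6 (50-5) in the knockdown libraries. Scr 50-1 stood alone above the other 5 libraries, and scr 25-2 lay among the knockdown values. The log2 fold change of -0.59 ± 0.270 (SE) was -0.96 without scr 25-2 and -0.07 without scr 50-1.

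Both E2F factors of the S-phase list had negative log2 fold changes, with different spread. E2f1 (chromosome 2, 154559400 to 154569892), an activator of S-phase genes, had 14.9 in wt, 17.3 (25-2) and 20.7 (50-1) in the scr libraries, and 14.2 (25-3), 14.2 (50-2) and 13.1 (50-5) in the knockdown libraries. The knockdown libraries were the 3 lowest of the 6, with wt just above them, and the log2 fold change was -0.47 ± 0.134 (SE). E2f2 (chromosome 4, 136172274 to 136196056), a related activator and the member of lowest level, had 1.84 in wt, 1.01 (25-2) and 3.49 (50-1) in the scr libraries, and 0.918 (25-3), 1.27 (50-2) and 0.816 (50-5) in the knockdown libraries. Its log2 fold change of -1.18 ± 0.530 (SE) was set by scr 50-1, since it was -1.80 without scr 25-2 and -0.017 without scr 50-1.

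**Figure D3:**
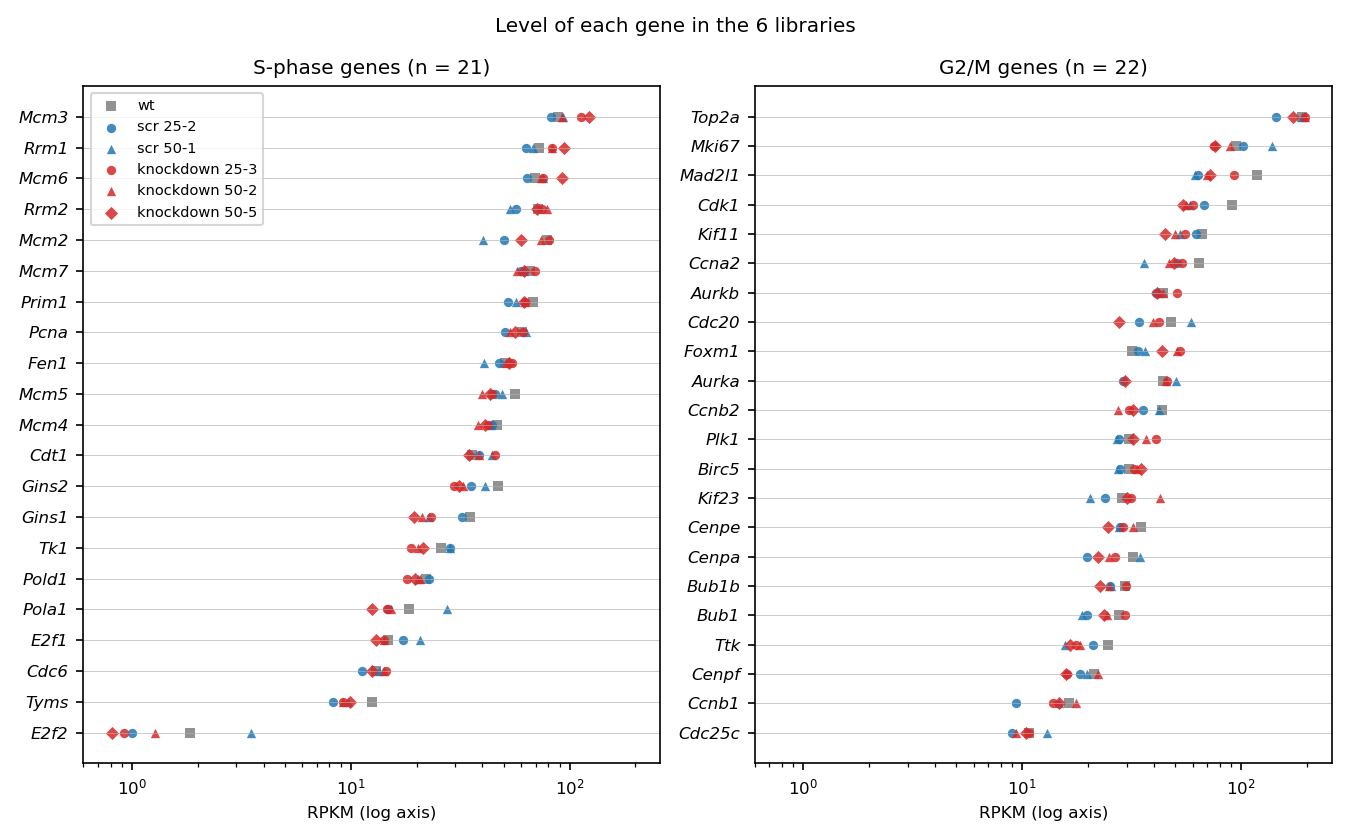
RPKM of each S-phase and G2/M gene in the 6 libraries on a log axis, ordered by mean level. Grey is wt, blue scr and red knockdown, with a shape for each library. E2f2 is the lowest gene, down to 0.816, and Top2a the highest, between 144 and 196, and scr 50-1 stands apart for E2f2 and Pola1.

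In the G2/M list, genes of the chromosome surface and of its topology came first in level. Top2a, the topoisomerase that untangles sister chromatids, had 190.4 in wt, 144 (25-2) and 190.1 (50-1) in the scr libraries, and 196 (25-3), 195 (50-2) and 172 (50-5) in the knockdown libraries. Scr 25-2 was the lowest and the log2 fold change was 0.16 ± 0.164 (SE). Mki67 (chromosome 7, 135689788 to 135716379), whose promoter is printed above and whose protein is the Ki-67 antigen used to score dividing cells, had 94.6 in wt, 102 (25-2) and 138 (50-1) in the scr libraries, and 75.1 (25-3), 89.3 (50-2) and 76.2 (50-5) in the knockdown libraries. All 3 knockdown libraries were below both scr libraries and wt, and the log2 fold change was -0.59 ± 0.176 (SE). Mki67 and Top2a are both used as proliferation markers. Without scr 25-2 their log2 fold changes were -0.78 and -0.016, and without scr 50-1 they were -0.36 and 0.37, so each scr library moved both values.

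Cyclins and the control of CDK1, the kinase that starts mitosis, had values of both signs. Ccnb2 (chromosome 9, 70407689 to 70421554), cyclin B2, had 43.7 in wt, 35.7 (25-2) and 42.00 (50-1) in the scr libraries, and 30.8 (25-3), 27.5 (50-2) and 31.97 (50-5) in the knockdown libraries. The knockdown libraries were the 3 lowest, with a log2 fold change of -0.38 ± 0.143 (SE). Ccnb1, cyclin B1, had 0.34 over a range of 9.40 to 17.6 RPKM, and Ccna2, cyclin A2, had 0.18 over 35.96 to 63.9. Without scr 25-2 these were 0.067 and 0.48, and without scr 50-1 they were 0.70 and -0.046, so Ccna2 changed sign. Ccna2 shares 863 bases with Exosc9 on the other strand, so its counts are uncertain. Cdk1 itself lay at 54.03 to 90.4 RPKM with -0.16. Cdc25c, the phosphatase that activates CDK1 and the G2/M gene of lowest mean, had 10.8 in wt, 8.99 (25-2) and 12.9 (50-1) in the scr libraries, and 10.7 (25-3), 9.35 (50-2) and 10.4 (50-5) in the knockdown libraries. Its groups overlapped, with a log2 fold change of -0.12 ± 0.208 (SE).

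Among mitotic kinases, Plk1 (chromosome 7, 122159435 to 122169884), polo-like kinase 1, had 30.8 in wt, 27.8 (25-2) and 26.97 (50-1) in the scr libraries, and 41.02 (25-3), 36.7 (50-2) and 32.2 (50-5) in the knockdown libraries. Knockdown lay above scr and wt in every library, with a log2 fold change of 0.41 ± 0.146 (SE). Aurka, Aurora A of the spindle poles, lay at 28.8 to 50.5 RPKM with 0.01. Of the chromosomal passenger complex, Aurkb lay at 40.9 to 50.96 with 0.11, and Birc5, survivin, at 27.4 to 34.8 with 0.26 and all 3 knockdown libraries above the other 3. Of the spindle checkpoint, which delays anaphase until kinetochores are attached, Bub1 (chromosome 2, 127800200 to 127831859) had 27.7 in wt, 19.7 (25-2) and 18.7 (50-1) in the scr libraries, and 29.4 (25-3), 24.4 (50-2) and 23.6 (50-5) in the knockdown libraries. Knockdown lay above both scr libraries with wt among its values, and the log2 fold change was 0.41 ± 0.148 (SE). Mad2l1 lay at 61.4 to 118 RPKM with 0.31, which was 0.16 without knockdown 25-3 and -0.057 with wt added to the controls. Bub1b lay at 22.7 to 29.8 RPKM with 0.01 and Ttk, the kinase MPS1, at 15.6 to 24.7 with -0.08. Cdc20, the activator of the anaphase-promoting complex, lay at 27.7 to 59.3 with -0.37, and it shares 52 bases with Elovl1 on the other strand.

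Kif23 (chromosome 9, 61917278 to 61946799), a kinesin of the central spindle needed for cytokinesis, had 28.5 in wt, 23.9 (25-2) and 20.4 (50-1) in the scr libraries, and 31.4 (25-3), 42.4 (50-2) and 30.03 (50-5) in the knockdown libraries. Every knockdown library lay above the other 3, and the log2 fold change was 0.63 ± 0.197 (SE), the largest positive value of this list, and not a call. Kif11, the kinesin that separates spindle poles, had -0.21 over 44.9 to 65.97 RPKM. Foxm1 (chromosome 6, 128362994 to 128375886), the transcription factor of G2/M genes, had 31.9 in wt, 33.6 (25-2) and 36.4 (50-1) in the scr libraries, and 52.5 (25-3), 51.02 (50-2) and 43.3 (50-5) in the knockdown libraries. Knockdown again lay above all other libraries, with a log2 fold change of 0.47 ± 0.137 (SE). Of the centromere, Cenpa, the histone H3 variant, lay at 19.8 to 34.4 RPKM with -0.15, the kinesin Cenpe at 24.8 to 34.8 with 0.03 and Cenpf at 15.8 to 22.2 with -0.10.

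For 11 of 43 members all 3 knockdown libraries lay above both scr libraries, against 25.7% of all genes, and for 7 they lay below, against 24.5% of all genes. After adjustment over all 11577 genes, edgeR's quasi-likelihood test gave a Benjamini-Hochberg FDR of 0.0766 for Mcm2, 0.0758 for Rrm2, 0.0778 for E2f1, 0.0805 for Foxm1, 0.0828 for Mki67 and 0.0943 for Kif23. By the same test the FDR was 0.108 for Rrm1, 0.126 for Bub1 and 0.126 for Plk1, and 0.140 for Ccnb2. When scr 25-2 was left out 4 members were called, Mcm2 as higher and E2f2, Pola1 and Mki67 as lower, where 19.9% of all genes were called. The 11 members with an unadjusted p under 0.05 kept their sign in all 12 other settings tried. They were picked by that p in the same libraries, so the kept signs are no added support. Sizes could move, as for Mcm2 from 0.64 to 0.34 with wt added to the controls.

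On the log2(RPKM + 0.1) scale the gap between scr 25-2 and 50-1 exceeded the difference of knockdown and scr means in 21 of the 43, against 47.9% of all genes, and 26 members were higher in 50-1, against 51.4% of all genes. The gap passed 1.5-fold in 6 members, against 28.1% of all genes. These were E2f2, Pola1, Ccnb1, Cdc20, Aurka and Cenpa, and in each of the 6 scr 50-1 was the higher library. With scr 25-2 left out the log2 fold change took the other sign or moved by over 1.5 times in 21 members, and with scr 50-1 left out in 25. Small shifts pass this mark where the value is near 0, as for Pcna, from -0.02 to -0.15 without scr 25-2. The share over all genes was not counted. Over all 12 alternative settings 29 of 516 member values moved by at least 1 pooled SD of the gene. Of the 6 genes with a gap past 1.5-fold, Aurka had 44.00 in wt, and 28.8 (25-2) and 50.5 (50-1) in the scr libraries. It had 45.8 (25-3), 45.5 (50-2) and 29.5 (50-5) in the knockdown libraries, so that scr 25-2 and knockdown 50-5 were low together. Cdc20 had 48.05 in wt, 34.1 (25-2) and 59.3 (50-1) in the scr libraries, and 42.2 (25-3), 39.6 (50-2) and 27.7 (50-5) in the knockdown libraries. Cenpa had 31.9 in wt, 19.8 (25-2) and 34.4 (50-1) in the scr libraries, and 26.6 (25-3), 24.8 (50-2) and 22.3 (50-5) in the knockdown libraries. In all 3 genes knockdown 50-5 was the lowest knockdown library and scr 50-1 the highest of all 6, and the sign of the difference changed with the scr library used. Without scr 25-2 the log2 fold changes were -0.33 for Aurka, -0.70 for Cdc20 and -0.48 for Cenpa, and without scr 50-1 they were 0.47, 0.09 and 0.30. The median gap was 0.229 over the members and 0.323 over all genes.

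**Figure D4:**
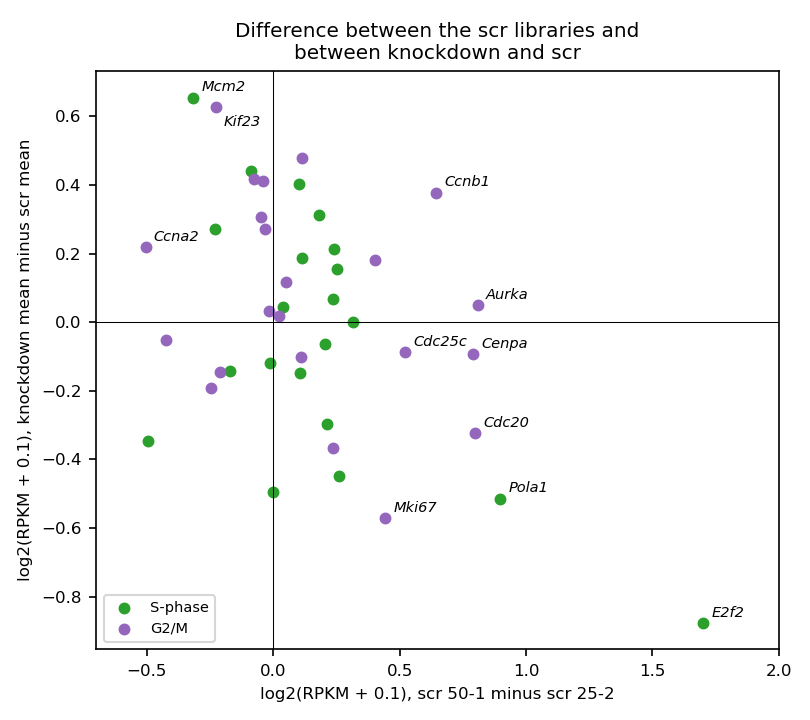
Difference between the scr libraries (horizontal, scr 50-1 minus scr 25-2) and difference of the knockdown mean from the scr mean (vertical), both on the log2(RPKM + 0.1) scale, for the 21 S-phase (green) and 22 G2/M (purple) genes. E2f2 and Pola1 lie far right and low, where 1 scr library stands above the rest, while Mcm2 and Kif23 lie high with scr libraries closer together.

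Taken as lists, S-phase and G2/M genes were set against each other in every library. The mean log2(RPKM + 0.1) of S-phase genes minus that of G2/M genes was -0.21 in wt, -0.10 in scr 25-2 and -0.077 in scr 50-1. In knockdown it was -0.24 in 25-3, -0.25 in 50-2 and -0.098 in 50-5. The mean was -0.091 ± 0.020 in scr (SD, n = 2) and -0.20 ± 0.085 in knockdown (SD, n = 3). Knockdown 25-3 and 50-2 lay below both scr libraries and near wt, and knockdown 50-5 lay between the scr values, so the groups overlapped. The difference of -0.11 was 1.5 times the pooled SD of 0.070. It was -0.19 as a median over members, -0.15 without knockdown 50-5 and -0.065 with wt added to the controls. Geometric mean RPKM of the S-phase genes was 35.1 in wt, 30.2 and 33.9 in scr and 31.9, 31.2 and 30.7 in knockdown. That of the G2/M genes was 40.7 in wt, 32.4 and 35.8 in scr and 37.7, 37.0 and 32.8 in knockdown. The S-phase values of knockdown all lay within the scr range, and of the G2/M values those of 25-3 and 50-2 lay above it and that of 50-5 within it. At an unadjusted p under 0.05 there were 3 higher and 2 lower S-phase genes and 4 higher and 2 lower G2/M genes, against 15.0% higher and 16.5% lower over all genes. The 6 G2/M genes became 1 without knockdown 25-3 and 2 without knockdown 50-2, and the S-phase genes numbered 5 and 4 there. Of all genes 23.3% and 21.5% passed in these fits.

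**Figure D5:**
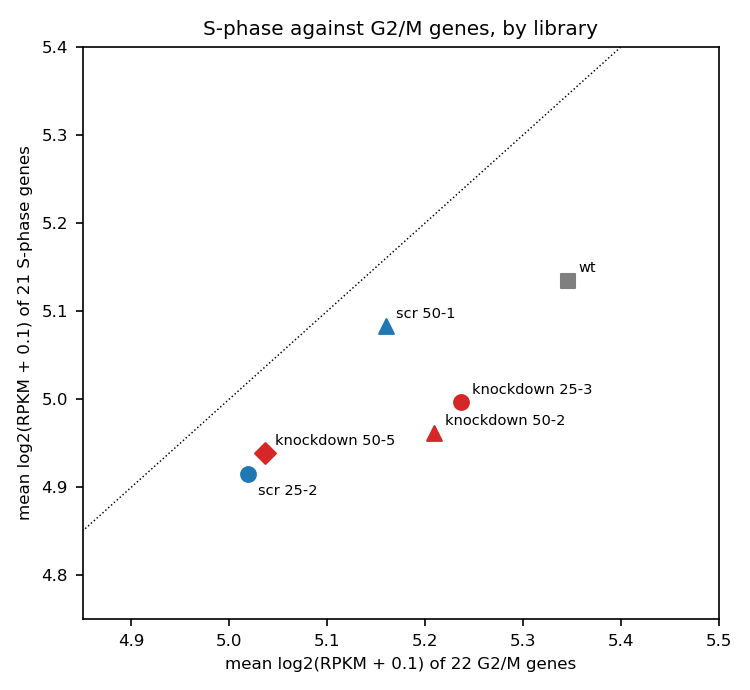
Mean log2(RPKM + 0.1) of the 22 G2/M genes (horizontal) and the 21 S-phase genes (vertical), 1 point per library, with the dotted line where both are equal. All 6 libraries lie below the line, wt is highest on both axes, and knockdown 50-5 lies beside scr 25-2.

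The wt library, a single library with no replicate and so no test, stood above the scr libraries for most members. It exceeded both scr libraries in 27 of 43, against 33.2% of all genes, and lay below both in 5, against 29.3% of all genes. It was the highest of all 6 libraries in 13, against 17.4% of all genes. Its excess over the scr mean was 0.14 on the log2 scale for the S-phase list and 0.26 for the G2/M list. Only Mad2l1 and Mcm2 were at least 1.5-fold higher in wt, by 1.90 and 1.76 times, where 11.0% of all genes were, and 0 members were 1.5-fold lower, where 6.30% of all genes were. Mad2l1, the checkpoint protein MAD2, had 118 in wt, 63.5 (25-2) and 61.4 (50-1) in the scr libraries, and 92.4 (25-3), 69.7 (50-2) and 71.8 (50-5) in the knockdown libraries. Its wt value was the highest of the 6 and its knockdown values lay between wt and scr. Cdk1 and Ccna2 were also highest in wt, at 1.44 and 1.49 times the scr mean. The knockdown and wt comparisons share the scr libraries.

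Wider lists of the same processes gave few calls. Of 53 further replication genes 2 were called, both higher in knockdown, and of 67 further mitosis genes 1 was called, also higher, where 10.6% of all genes were called in either direction. With wt added to the controls the balance of directions turned, with 1 replication gene higher and 3 lower (Chaf1b, Rfc4 and Rpa2) and 1 mitosis gene higher and 2 lower (Nusap1 and Pttg1), where 14.1% of all genes were called. Pola2 (chromosome 19, 5940543 to 5964206), the accessory subunit of polymerase alpha, had 19.95 in wt, 16.4 (25-2) and 10.9 (50-1) in the scr libraries, and 34.96 (25-3), 26.4 (50-2) and 28.2 (50-5) in the knockdown libraries. Every knockdown library lay above wt and scr, for a log2 fold change of 1.12 ± 0.236 (SE), at FDR 0.0409 (Benjamini-Hochberg adjusted, edgeR's quasi-likelihood test). Its catalytic partner Pola1 had a log2 fold change of the other sign, -0.59, but was not called. That value was -0.07 without scr 50-1, so an opposite change of the subunits is not shown. Orc2 (chromosome 1, 58462771 to 58505109), a subunit of the origin recognition complex, had 46.4 in wt, 37.01 (25-2) and 28.7 (50-1) in the scr libraries, and 54.96 (25-3), 54.4 (50-2) and 57.9 (50-5) in the knockdown libraries. The knockdown libraries stood close together above the rest, with 0.75 ± 0.158 (SE), at FDR 0.0407 (Benjamini-Hochberg adjusted, edgeR's quasi-likelihood test). Smc2 (chromosome 4, 52439221 to 52488365), a condensin subunit, had 45.4 in wt, 42.3 (25-2) and 35.7 (50-1) in the scr libraries, and 60.3 (25-3), 58.3 (50-2) and 61.99 (50-5) in the knockdown libraries. Knockdown lay above the other libraries in each case, with 0.61 ± 0.137 (SE), at FDR 0.0462 (Benjamini-Hochberg adjusted, edgeR's quasi-likelihood test). At an unadjusted p under 0.05 the replication list had 5 higher and 4 lower genes and the mitosis list 6 higher and 7 lower, where 31.5% of all genes passed. The 13 mitosis genes became 6 without knockdown 25-3 or 50-2 and 7 without 50-5, and the 9 replication genes 5 without knockdown 50-2 or 50-5. Over all genes fewer passed too, at 23.3% without 25-3, 21.5% without 50-2 and 2845 of 11482 genes without 50-5. None of the 3 calls held in every setting. Pola2 and Orc2 were not called without scr 50-1 or without any 1 knockdown library, and Orc2 was also lost with wt added or with the label number as a term. Smc2 was lost in all of these settings and with no RPKM filter.

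Among 18 transcription regulators of both programmes, E2F family members, their DP partners, retinoblastoma proteins, MuvB subunits and MYB factors, 17 could be tested and 1 was called, where 10.6% of all genes were. Tfdp2 (chromosome 9, 96196275 to 96323646), the DP2 partner of E2F factors, had 8.72 in wt, 20.4 (25-2) and 17.7 (50-1) in the scr libraries, and 9.85 (25-3), 7.24 (50-2) and 7.24 (50-5) in the knockdown libraries. The knockdown libraries lay below both scr libraries, with a log2 fold change of -1.25 ± 0.185 (SE), at FDR 0.0178 (Benjamini-Hochberg adjusted, edgeR's quasi-likelihood test). The wt value lay among the knockdown values, and Tfdp2 was not called with wt added to the controls, without knockdown 50-2 or without knockdown 50-5. At an unadjusted p under 0.05 there were 5 regulators, all lower in knockdown, where 31.5% of all genes passed in either direction and 16.5% as lower. That number was 2 without knockdown 50-2, where 21.5% of all genes passed, and 10 with wt added, where 33.2% passed.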

How the data were processed

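The authors sequenced ribosome-depleted RNA, aligned reads with TopHat2 to mm10 and counted them per gene with HTSeq (0.6.1p1 in the submitters' processing notes). Whether counting used strand is not given in the sources used here. The deposited count table holds reads per gene without normalization, and the deposited RPKM table holds values the authors scaled with TMM. Each library column was matched to its sample by name, with 0 left unmatched.

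Counts were fitted in edgeR 4.0.16 (R 4.3.3) with TMM and the quasi-likelihood test over the 11577 genes whose RPKM exceeded 1 in any of the 5 knockdown and scr libraries. P-values were adjusted by Benjamini-Hochberg over all of them, and a call needed an FDR under 0.05 and a change of 1.5-fold. The fit left wt out and kept knockdown 50-5, whose values the study does not tabulate. Standard errors and 95% intervals come from the same fit, with a common biological coefficient of variation of 0.272. Counting error was small beside this spread at 25586301 to 33119710 counts per library. List means were taken of log2(RPKM + 0.1). The alternatives were DESeq2 1.42.0, RLE size factors, no filter, limma 3.58.1 on log2(RPKM + 0.1) and log2(RPKM + 1), wt added to the controls, the label number 25 or 50 as an added term, the FDR alone, and each library left out. The fits were run on simulated counts with known changes. Only the edgeR fit was required to recover them, and only for changes well above 1.5-fold. This check therefore does not show how often a change near 1.5-fold would be called. Motifs were searched in RefSeq promoter windows of GRCm38.p6.

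The members and lists were chosen with earlier results of these data known, so no p is given for a list. Values in every library are given for the 6 members of each list with the largest absolute log2 fold change, the members of highest and lowest mean RPKM, up to 5 called genes in each direction of the other lists, and Midn. Values of Rrm1, Aurka, Cdc20, Cenpa and Mad2l1 are given in the same way and were chosen after their values were seen. Figures were drawn with matplotlib 3.10.9.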

Additional observations from a re-analysis of the deposited data

How the results depend on the processing

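Member calls, 0 by edgeR, were 3 with DESeq2 (1 S-phase, 2 G2/M) and 0 to 4 with 1 library left out (0 to 3 S-phase, 0 to 1 G2/M), the 4 appearing without scr 25-2. No member was called in the other 10 of 12 refitted settings, nor with the FDR alone in the main edgeR fit. By the DESeq2 Wald test Rrm1 (FDR 0.0211), Rrm2 (0.00472), Tk1 (0.00806), E2f1 (0.0243) and Foxm1 (0.0123) also passed the FDR threshold. Their changes were under 1.5-fold, so they were not calls. With wt added to the controls Foxm1 passed it too (FDR 0.0363, edgeR's quasi-likelihood test), again under 1.5-fold. Further replication genes gave 5 calls with DESeq2 (3 higher), 4 with wt added (1 higher), 1 with the label number as a term, and 0 to 5 with 1 library left out. Further mitosis genes gave 6 with DESeq2 (4 higher), 0 with no filter, 2 with limma on log2(RPKM + 0.1), 3 with wt added (1 higher), 0 with the label number, 3 with the FDR alone, and 0 to 7 with 1 library left out. The regulators gave 0 with wt added and 0 to 1 with 1 library left out. Midn kept its log2 fold change between -1.49 and -1.24 with 1 library left out, and its call was lost without knockdown 50-2 at -1.38. The S-phase minus G2/M difference was -0.19 as a median over members, -0.15 to -0.079 with 1 library left out and -0.065 with wt added. Calls over all genes went from 1230 to 2322 with DESeq2, 807 with the label number and 131 to 2273 with 1 library left out, 131 of them without knockdown 50-2, 259 without knockdown 25-3, 346 without knockdown 50-5 and 2273 without scr 25-2. The cause of these changes was not tested. Of 516 member values under the alternatives, 26 took the other sign. The label numbers 25 and 50 occur in both groups, but their meaning is not stated.

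The spread of scr is 1 difference between 2 libraries, and the fit borrows the rest from other genes. At this size 24 of the 43 intervals reached past 1.5-fold, and a p that misses the threshold does not show that the groups did not differ. A group left with 1 library is assumed to vary like the other groups, and wt has no replicate.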
